A study of Mus musculus with 2 samples.

Results

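MicroRNA (miRNA) genes that reach Dicer without the nuclear enzyme Drosha were described in the neural tube of mouse embryos, the forerunner of brain and spinal cord. The set held 6 of the 1973 miRNA genes measured. Mir320 and Mir484 are hairpins known to be transcribed with a 5′ cap of their own, and Mir877, Mir702, Mir1224 and Mir1981 are mirtrons, hairpins made from short introns. The genes were taken by name, and their rows were found by Ensembl identifier matched to GENCODE mouse symbols. The rule uses no measured value, but the genes were chosen with earlier results of these data known. All 6 had a row in both libraries.

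The study made small RNA libraries from embryos of strain B6NCrl at embryonic day 11.5, in 1 group of 2 biological replicates with no treatment. Each replicate was a pool of male and female embryos, 109 in replicate 1 and 88 in replicate 2, and RNA below 30 nt was sequenced. Counted on the strand of the gene, replicate 1 held 3708662 miRNA reads and replicate 2 held 4055883, and levels are given as counts per 1000000 of these (CPM). With 1 group no test between conditions exists, so the data give the level of each gene and the distance between the libraries. The samples were bulk tissue, in which fewer cells of a type and less RNA per cell cannot be told apart. Of miRNAs known from particular tissues, Mir92b and Mir137 of neural progenitors and neurons held 4979 ± 383 and 1965 ± 289 CPM (SD, n = 2). Mir126a of endothelium held 23624 ± 1869 CPM, Mir206 of skeletal muscle 1060 ± 423 CPM and Mir122 of liver 7.85 ± 0.0497 CPM. The part of these other cell types in the levels below was not tested.

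In the canonical route, Drosha with its partner Dgcr8 cuts a hairpin out of a long primary transcript, and Dicer then cuts the hairpin into the mature duplex. A mirtron takes its ends from the spliceosome instead: an intron is spliced out, its lariat is opened and the linear intron folds into a hairpin that Dicer can cut. At capped hairpins RNA polymerase II starts at the hairpin itself and stops soon after it, so the short transcript already is the precursor. Read counts per hairpin do not show which enzyme cut it, so the grouping rests on what is known of these genes and not on these libraries.

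The introns of the mirtrons are shown first, because a mirtron takes its ends from the splice sites. The annotated hairpin of Mir702 does not end at them, as described below. The hairpins below are RefSeq sequences for GRCm38, the assembly also called mm10, printed 5′ to 3′ in RNA letters. Capitals mark the bases at the intron's ends, where these lie inside the hairpin.
Mir877, chr17:35960730-35960814, minus strand: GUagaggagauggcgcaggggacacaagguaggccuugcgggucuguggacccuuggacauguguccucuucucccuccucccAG
Mir702, chr5:136991433-136991541, plus strand: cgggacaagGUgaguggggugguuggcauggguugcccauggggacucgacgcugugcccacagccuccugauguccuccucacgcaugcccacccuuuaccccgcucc
Mir1224, chr16:20604452-20604536, plus strand: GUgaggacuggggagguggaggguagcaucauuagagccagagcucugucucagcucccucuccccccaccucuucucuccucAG
Mir1981, chr1:184822407-184822488, minus strand: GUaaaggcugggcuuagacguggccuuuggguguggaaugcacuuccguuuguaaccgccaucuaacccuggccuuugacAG

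In 3 of the 4 mirtrons the annotated hairpin was the whole intron, with 0 nt between hairpin and intron at either end. In the GENCODE M21 annotation, Mir877 (ENSMUSG00000077931.1) fills intron 12 of 22 of Abcf1, a gene that acts in translation initiation, and this intron is 85 nt long. Mir1224 (ENSMUSG00000080669.1) fills the last intron, 22 of 22, of Vwa5b2, also 85 nt long. Mir1981 (ENSMUSG00000088559.1) fills intron 5 of 7 of Marc2, a mitochondrial molybdenum enzyme, at 82 nt. Each of these 3 hairpins begins with GU and ends with AG, the letters of a standard intron. Among the 1005 mouse hairpins of the RefSeq table, 30 (2.99%) had both. For a hairpin that is a whole intron these letters are those of the splice sites, so this share is no test of the 3.

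Mir702 (ENSMUSG00000076240.1) was drawn otherwise. Its hairpin begins 9 nt inside the coding exon before intron 13 of 18 of Plod3, a collagen-modifying lysyl hydroxylase, and stops 2 nt short of the end of that intron, which is 102 nt long. The GU in capitals is the start of the intron. Its last bases lie outside the printed hairpin and were not read.

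The mature miRNAs follow the same borders. They are printed with the seed, bases 2 to 8, in capitals, since the seed is the part that pairs with target mRNAs.
miR-484: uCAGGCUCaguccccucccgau
miR-877-5p: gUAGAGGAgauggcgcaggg
miR-877-3p: uGUCCUCUucucccuccuccca
miR-702-5p: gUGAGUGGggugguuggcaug
miR-702-3p: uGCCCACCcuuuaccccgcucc
miR-1224-5p: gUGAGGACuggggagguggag
miR-1224-3p: cCCCACCUcuucucuccucag
miR-1981-5p: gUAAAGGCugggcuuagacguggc
miR-1981-3p: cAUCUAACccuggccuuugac
Mir320 had no matched entry in the RefSeq table.

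All 4 of the 5p arms begin at the first base of the intron, 0 nt from its start, so each opens with the GU of the 5′ splice site and the seed takes in the U. That holds for Mir702 as well, whose hairpin starts upstream of the intron. At the other end, miR-1224-3p reaches the last base of its intron, miR-877-3p stops 1 nt short, and miR-702-3p and miR-1981-3p stop 2 nt short. The map of hairpins and arms in their introns shows the 5p arms aligned at the intron start.

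**Figure D1:**
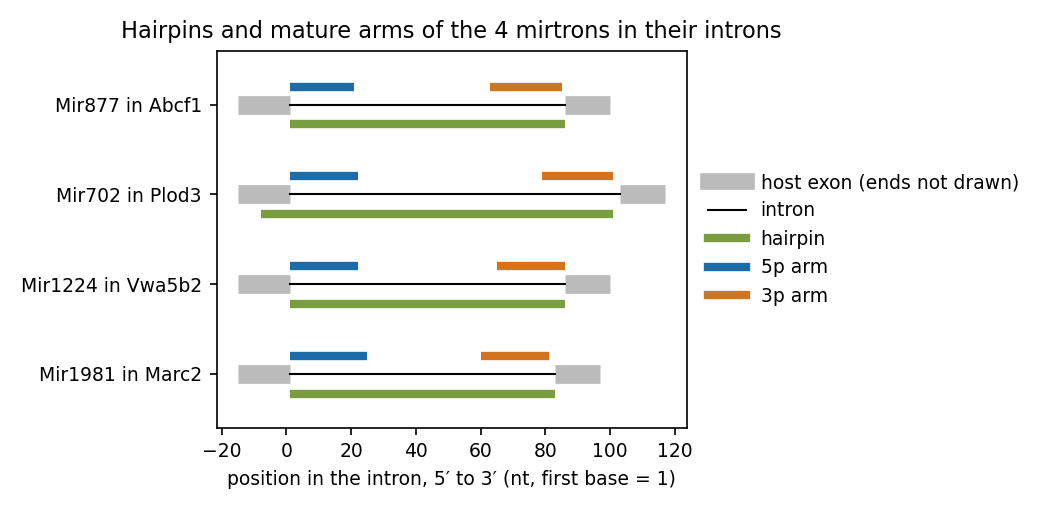
Position of the hairpin and the mature arms of 4 mirtrons within the host intron, in nt from the first base of the intron. The 4 5p arms start at base 1, and the hairpin of Mir702 alone extends into the exon upstream, by 9 nt.

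The arms of the mirtrons were of unequal composition. G made up 55.0% of miR-877-5p, 57.1% of miR-702-5p, 61.9% of miR-1224-5p and 41.7% of miR-1981-5p, against a median of 26.1% over the 1738 mature miRNAs of the table. At least 40% G was found in 332 of these (19.1%). C made up 54.5% of miR-877-3p, 59.1% of miR-702-3p, 57.1% of miR-1224-3p and 38.1% of miR-1981-3p, against a median of 22.7%. At least 40% C was found in 212 of the 1738 (12.2%), a level that miR-1981-3p did not reach. The 5p arms were thus rich in G and the 3p arms rich in C, with miR-1981 the least extreme of the 4 on both arms. The skew was not particular to these 4. G held 13 of 22 bases in miR-3102-5p and 14 of 23 in miR-6944-5p, both from other short-intron hairpins described below. C held 10 of 23 bases in miR-3102-3p and 9 of 23 in miR-6944-3p. miR-484, which is no mirtron product, held 45.5% C and 18.2% G. Over whole hairpins, G and C together made up 53.7% in Mir1981 to 65.1% in Mir702, against a median of 51.7%, and 92.5% of hairpins in the table had a lower share than Mir702.

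None of the 9 mature sequences shared its seed with another of the 9. Outside the set, 1 match was found: the seed of miR-702-5p, UGAGUGG, is also that of miR-3102-5p, made from another mirtron. Its sequence is shown for comparison, with the seed in capitals.
miR-3102-5p: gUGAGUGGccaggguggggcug
The counts are per hairpin and do not tell the arms apart, so which of these mature sequences were present was not measured. No run of 20 nt of any of the 5 hairpins with a RefSeq entry occurred in another hairpin of the annotation. Mir320 is left out of this statement, since it had no matched entry. Among the measured genes 923 shared such a run. How many of the measured genes had a sequence to search is not given here, so 923 gives no share. Copies elsewhere in the genome were not analysed here. Multiply mapped reads entered no gene's count, and they formed 25.2% of the reads of replicate 1 and 27.3% of those of replicate 2.

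The capped hairpins lie outside introns. Mir320 (ENSMUSG00000065528.1, chr14:70443510-70443591, plus strand, 82 nt) begins 63 nt from the start of Polr3d, a subunit gene of RNA polymerase III transcribed from the opposite strand. Mir484 (ENSMUSG00000070074.1, chr16:14159626-14159692, plus strand, 67 nt) begins 359 nt from a start of Marf1, again on the opposite strand. A longer transcript of Marf1 runs past the hairpin and places 19 nt of an untranslated exon opposite it. No other transcript of the annotation covered either hairpin on its own strand. The nearest start on the same strand was that of Phyhip for Mir320, 13966 nt downstream, and that of Nde1, a regulator of dynein and of neural progenitor division, for Mir484, 3649 nt downstream. The annotation used here therefore placed both hairpins near an annotated transcript start of the opposite strand. It gave no longer transcript of their own, and the cap itself was not measured. The share of all miRNA genes that lie as near such a start is not given here.

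All 6 genes were detected, each with at least 10 own-strand counts in both libraries, as 372 of the 1973 genes had. Their counts are per hairpin, from RNA below 30 nt, and were not divided by hairpin length. Positions and lengths of the reads were not given. Mature miRNAs were therefore not told apart from other pieces of the hairpin, or of the host transcript that overlaps it. How evenly different miRNAs were captured was not measured, and ratios between genes are ratios of counts. Intervals are 95% exact Poisson intervals, which cover counting error only. They take each read as independent, so amplified copies of the same molecule make them too narrow.

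Mir484 was the most abundant. It held 6301 counts in replicate 1 and 7719 in replicate 2, or 1699 CPM (1657 to 1741) and 1903 CPM (1861 to 1946), a mean of 1801 ± 144 CPM (SD, n = 2). It ranked 72nd of all miRNA genes. Its nearest genes in level were Mir20b of the miR-17 family (1801 ± 54.2 CPM) and Mir467d of the Sfmbt2 cluster (1798 ± 65.8 CPM).

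Mir320, the other capped hairpin, held 2316 and 1961 counts, or 624 CPM (599 to 650) in replicate 1 and 483 CPM (462 to 505) in replicate 2. Its mean of 554 ± 99.7 CPM placed it 117th, between the X-linked Mir503 (558 ± 184 CPM) and Mir421 (535 ± 96.6 CPM). Replicate 1 was the higher library for Mir320 and the lower one for Mir484. Counts of Mir484 exceeded those of Mir320 by 2.72-fold (95% exact Clopper-Pearson interval of the ratio 2.59 to 2.85) in replicate 1 and 3.94-fold (3.75 to 4.14) in replicate 2. These intervals did not overlap, so the ratio itself differed between the libraries by more than counting error, whatever the scaling.

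The mirtrons stood lower. Mir877 led them with 475 and 534 counts, 128 CPM (117 to 140) and 132 CPM (121 to 143), a mean of 130 ± 2.53 CPM and rank 186. Mir320 exceeded it by 4.88-fold (4.42 to 5.39) in replicate 1 and 3.67-fold (3.34 to 4.05) in replicate 2. Mir702 held 291 and 301 counts, 78.5 CPM (69.7 to 88.0) and 74.2 CPM (66.1 to 83.1), a mean of 76.3 ± 3.01 CPM and rank 220. Scaled by total counts, Mir877 and Mir702 had an SD of 1.95% and 3.94% of the mean, the smallest of the 6, whereas with TMM factors or DESeq2 size factors, described below, the log2 ratio nearest to 0 was that of Mir320.

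Mir1981 held 282 counts in replicate 1 and 170 in replicate 2. Its level was 76.0 CPM (67.4 to 85.5) and 41.9 CPM (35.9 to 48.7), a mean of 59.0 ± 24.1 CPM and rank 235. The SD was 40.9% of the mean, the widest of the 6 when scaled by total counts. Under the other 3 scalings plotted below the ratio of Mir1224 lay farther from equality. In replicate 1 it was as high as Mir702, with a ratio of Mir702 to Mir1981 of 1.03 (0.873 to 1.22), and in replicate 2 it was lower, with a ratio of 1.77 (1.46 to 2.15).

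Mir1224 was the rarest, with 20 and 34 counts, 5.39 CPM (3.29 to 8.33) and 8.38 CPM (5.81 to 11.7), a mean of 6.89 ± 2.11 CPM and rank 330. Its intervals overlapped between the libraries. The range from Mir1224 to Mir484 was 315-fold in replicate 1 and 227-fold in replicate 2. The plot of levels by library shows the same descent in both.

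**Figure D2:**
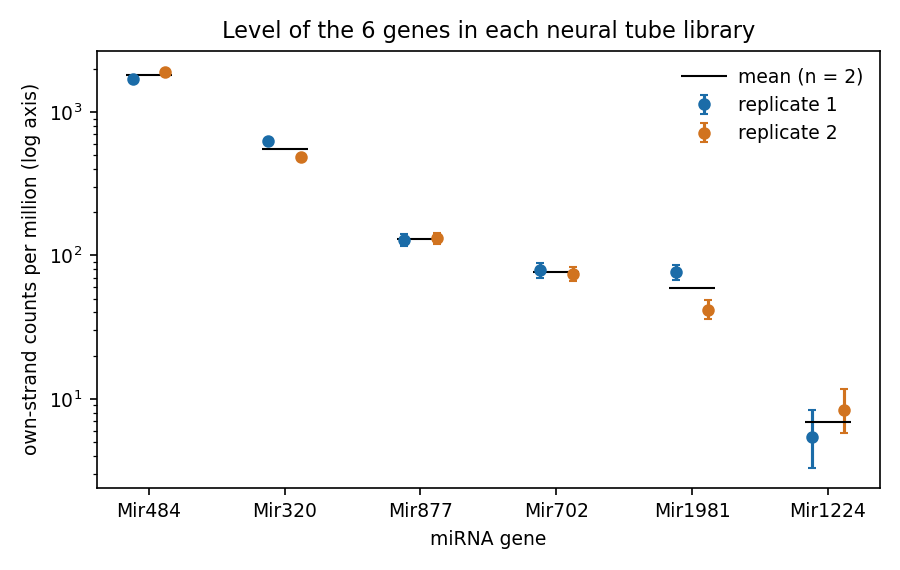
Own-strand CPM of the 6 genes in replicate 1 and replicate 2 (log axis), with 95% exact Poisson intervals and the mean as a bar. The order from Mir484 at 1801 CPM to Mir1224 at 6.89 CPM held in both libraries, and Mir702 and Mir1981 were the only neighbours whose ranges overlapped.

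In order of level the genes were thus Mir484, Mir320, Mir877, Mir702, Mir1981 and Mir1224. For 4 of the 5 neighbouring pairs the ranges over the libraries did not overlap. Mir702 and Mir1981 were the exception, and their order also turned when levels were divided by hairpin length, with a ratio of 0.974. With n = 2 the order rests on both libraries giving it.

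Among the 444 genes with at least 10 summed counts, whose median level was 74.6 CPM, Mir484, Mir320, Mir877 and Mir702 lay above the median and Mir1981 and Mir1224 below it. The plot of level against rank shows the 6 genes spread over most of the range below the leading miRNAs. Their summed share of counts was 0.261% in replicate 1, with a 95% Wilson interval of 0.256 to 0.266, and 0.264% in replicate 2, with 0.259 to 0.269. Mir484 made up 65.1% of this sum in replicate 1 and 72.0% in replicate 2. Without it the share was 0.0912% and 0.0740%, and the 4 mirtrons alone took 0.0288% and 0.0256%.

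**Figure D3:**
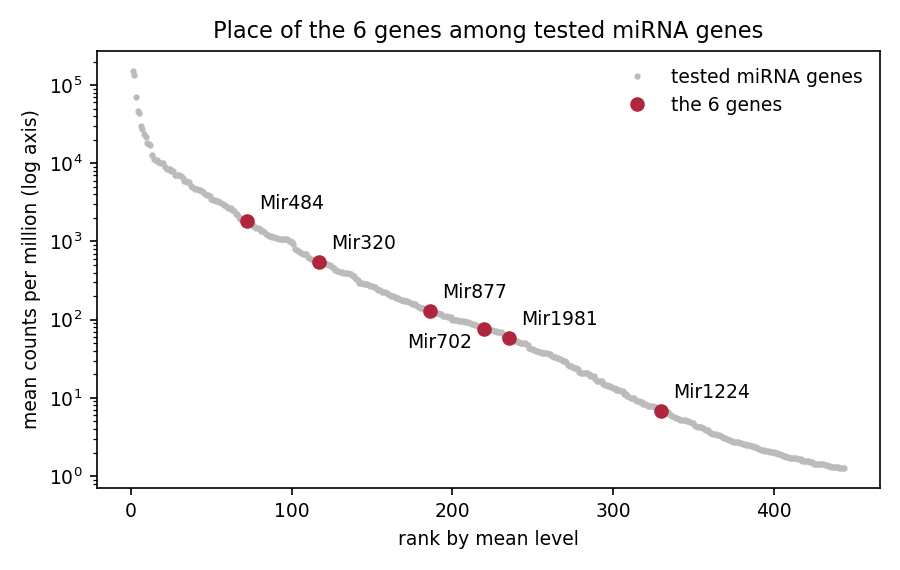
Mean CPM (log axis) of the 444 genes with at least 10 summed counts, against rank, with the 6 genes in red. Mir484 stood 72nd and Mir1224 330th.

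No read of any of the 6 genes lay on the opposite strand in either library, and a count of 0 allows up to 3 by a 1-sided 95% bound. Over all miRNA genes, 78467 reads in replicate 1 and 68621 in replicate 2 did. For Mir484 this includes the strand of Marf1.

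The libraries were then compared gene by gene with an exact binomial test, two-sided and conditional on the totals, and Benjamini-Hochberg adjustment over the 444 genes. It sets 1 library against the other and says nothing of conditions. Amplified copies of the same molecule are counted as separate reads, which makes the p-values too small. Over all tested genes 53.2% passed an adjusted p of 0.05, 45.3% higher in replicate 1 and 7.88% higher in replicate 2. Of the 6 genes 3 passed, a share close to that background. Replicate 1 exceeded replicate 2 by 1.81-fold for Mir1981 (adjusted p of the exact test 2e-09) and by 1.29-fold for Mir320 (3.3e-16). For Mir484, replicate 2 exceeded replicate 1 by 1.12-fold (adjusted p of the exact test 8.92e-11).

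The remaining 3 did not pass. On the log2 scale, replicate 1 over replicate 2 came to -0.04 for Mir877 (exact binomial adjusted p = 0.797), 0.08 for Mir702 (0.637) and -0.62 for Mir1224 (0.215). For Mir1224 the counting error alone had an SD of 0.41 on this scale, so a difference of that size was not detectable at this depth. The median log2 ratio was 0.02 for the 6 genes and 0.27 for all tested genes.

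The scaling moved these calls, because the median gene was itself higher in replicate 1 when libraries were scaled by total counts. Scaling by trimmed mean of M values (TMM) moved every log2 ratio by -0.29 and brought the median gene to -0.02. It called 39.9% of genes, 18.2% higher in replicate 1 and 21.6% higher in replicate 2, so the split between the directions turned. Mir320 then stood at 0.08 and no longer passed (exact binomial adjusted p = 0.143). Mir877 stood at -0.33 and now passed as higher in replicate 2 (exact binomial adjusted p = 0.00107). Mir1981 at 0.57 and Mir484 at -0.45 passed in their former directions (exact binomial adjusted p = 0.000145 and 3.45e-75). Mir702 turned to -0.21 and did not pass (exact binomial adjusted p = 0.176). Mir1224 did not pass either, at -0.91 (exact binomial adjusted p = 0.0668). Across the 4 scalings plotted, Mir1981 was called higher in replicate 1 and Mir484 higher in replicate 2 in each.

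**Figure D4:**
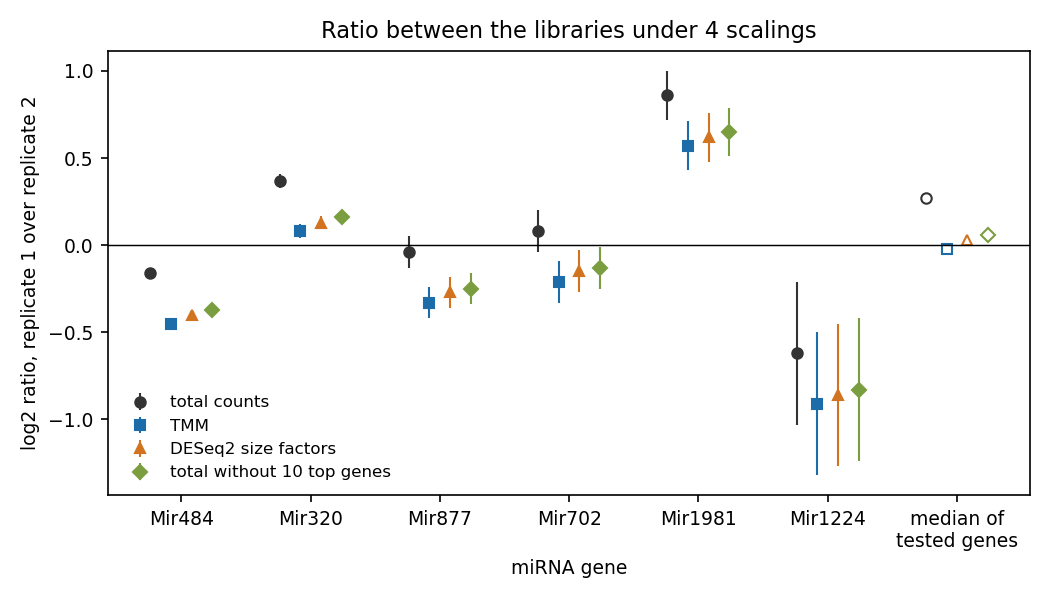
Log2 ratio of replicate 1 over replicate 2 for each gene under 4 scalings, with bars of 1 SD of counting error, and the median of the tested genes as open symbols. Mir1981 stays at 0.57 or above and Mir484 at -0.16 or below, while Mir702 changes sign with the scaling.

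Set against the median gene, Mir1981 lay 0.59 toward replicate 1. Of the 272 genes with at least 200 summed counts, 14 lay farther from the median in either direction. Mir484 lay at -0.43 from the median gene with 41 genes farther, Mir877 at -0.31 with 83, Mir702 at -0.19 with 139 and Mir320 at 0.10 with 195. Mir320, whose difference passed the test when scaled by total counts, was in this measure the closest of the 5 to the median gene.

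Other miRNA genes of the same build were few. The annotation placed both hairpin ends within 10 nt of the ends of an intron for 29 of the measured genes, the 4 mirtrons among them, and for 22 the hairpin and intron ends were the same. Of the 16 of these 22 with a RefSeq hairpin, 15 began with GU and ended with AG. In 18 of 25 genes with mature entries, the first mature sequence began at base 1 of the intron. The 4 mirtrons are among these 18.

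Of the 25 short-intron genes besides the 4 mirtrons, 8 (32.0%) reached 10 summed counts. Of 858 other intronic miRNA genes, 249 (29.0%) did. The median level of those that reached it was 2.78 CPM in the former and 49.7 CPM in the latter. Over all genes of each set, with no minimum, the order turned, with medians of 0.505 CPM and 0.123 CPM. Both lie near the floor: 0.505 CPM is the mean of a gene with 1 and 3 counts, and 0.123 CPM that of a gene with 0 and 1. At a minimum of 1 summed count, 80.0% of the short-intron genes and 51.3% of the other intronic genes passed. Those that passed had medians of 0.780 CPM and 1.80 CPM, so the order depends on the filter. Mir877, Mir702, Mir1981 and Mir1224 all stood above 2.78 CPM, and Mir1224 stood below 49.7 CPM. The 4 mirtrons ranked 1, 3, 5 and 6 of the 29 by mean level.

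The leading short-intron genes besides these were Mir3102, in an intron of Arhgef17, Mir6944, in an intron of the drebrin gene Dbn1, and Mir3062, at an intron of Pfas, a gene of purine synthesis. Mir3102 held 116 CPM in replicate 1 and 73.2 CPM in replicate 2 (94.5 ± 30.0 CPM, SD, n = 2), with a mean between those of Mir877 and Mir702, but in replicate 2 it was below Mir702. Mir6944 held 79.0 and 61.6 CPM (70.3 ± 12.3 CPM), with a mean between those of Mir702 and Mir1981, but in replicate 1 it was above Mir702. Mir3062 held 6.74 and 4.44 CPM (5.59 ± 1.63 CPM), with a mean below that of Mir1224, but in replicate 1 it was above Mir1224. These gaps were small in counts: 297 against 301 for Mir3102, 293 against 291 for Mir6944 and 25 against 20 for Mir3062. They were not tested. The plot of short-intron genes shows a step between the 5 most abundant and the rest.

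**Figure D5:**
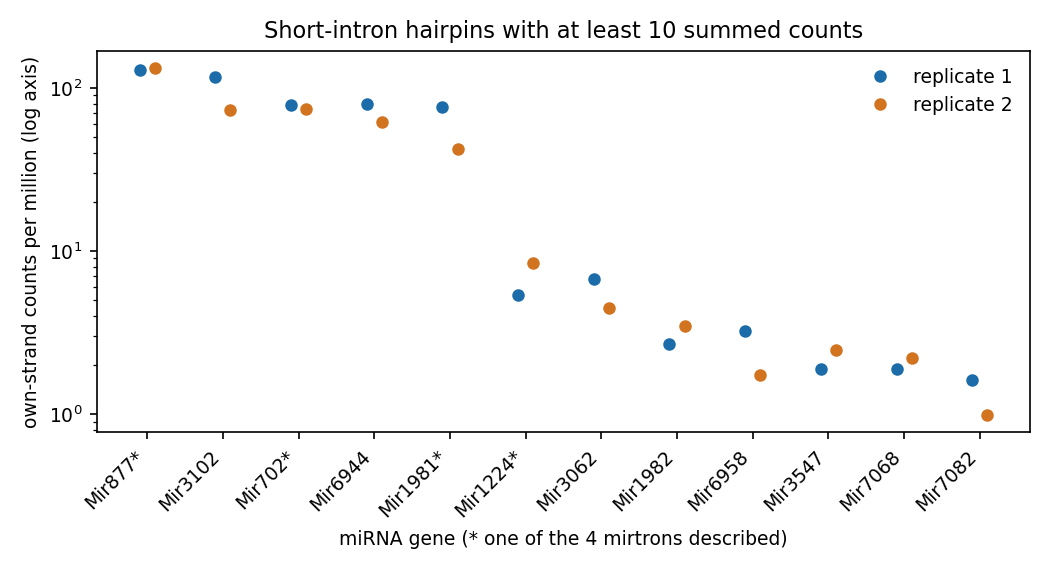
Own-strand CPM (log axis) in replicate 1 and replicate 2 of the 12 short-intron genes with at least 10 summed counts, with the 4 mirtrons marked by an asterisk. Mir877, Mir3102, Mir702, Mir6944 and Mir1981 lie at 41.9 CPM or more in both libraries, and Mir1224 and the other 6 at 8.38 CPM or less.

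A list of 10 other hairpins, drawn up as candidates for noncanonical processing, had 5 genes with a row used here. Of these, 4 had at least 10 summed counts and were tested, 2 were higher in replicate 1 and 0 in replicate 2, beside 45.3% and 7.88% of all tested genes. The median log2 ratio was 0.16 against 0.27 for all genes. With TMM the same counts of 2 and 0 stood beside 18.2% and 21.6%, and the median was -0.13 against -0.02. The 2 were Mir3102, with a 1.58-fold difference (adjusted p of the exact test 4.39e-09), and Mir668, which lies in the imprinted host transcript Mirg, with a 1.68-fold difference (1.81e-06). Mir668 held 231 and 150 counts, a mean of 49.6 ± 17.9 CPM. Mir1982, which fills an intron of Oaz1, held 10 and 14 counts (3.07 ± 0.534 CPM), and Mir5132, at an intron of Irak1, 4 and 8 counts (1.53 ± 0.632 CPM). Mir344 had 0 counts in both libraries, which allows up to 3 counts in each by the same 1-sided bound. Mir1839, Mir1965, Mir1843, Mir664 and Mir1291 had no row used here.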

How the data were processed

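The authors deposited raw read counts per miRNA gene for assembly mm10 and GENCODE M4, per the file headers (the descriptions deposited beside the tables). Not given in the sources used here were the aligner, the counter and any adapter trimming. Each library had 3 unnamed columns of counts, read from their sums as either strand, own strand and opposite strand; own-strand counts were used. Rows that name no gene (56.5% of reads in replicate 1 and 47.0% in replicate 2) were left out. Columns of per-sample values without a known sample numbered 0. Since the labels describe a pool of its own for each library, both count as replicates. The p-values set the difference between the 2 libraries against counting error alone, with no spread between replicates.

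Of 1973 genes, 1894 matched a symbol of GENCODE M21 (GRCm38) by identifier, version ignored. Introns, exons and transcript starts came from M21 and sequences from RefSeq (GRCm38.p6), where 5 of the 6 genes matched. CPM is scaled to each library's own-strand total. Log2 ratios carry a pseudocount of 0.5 counts. Genes with at least 10 summed counts were tested. edgeR's quasi-likelihood test was not used, because 1 group of 2 libraries leaves no contrast. Under R 4.3.3, edgeR 4.0.16 gave the TMM factors and DESeq2 1.42.0 the size factors; other steps ran in Python 3.11.15 (scipy 1.17.1, pandas 2.3.3, numpy 2.4.6). The test was checked on counts simulated for these libraries with 200 genes changed and counting noise only. It recovered 77.0% of genes changed 1.5-fold (447 tested), 84.0% at 2-fold (434) and 98.5% at 4-fold (436). False calls numbered 3, 6 and 5. The changed genes were drawn at a higher minimum of expected counts than the test uses. Recovery at the lowest tested counts was therefore not measured.

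The members and lists were chosen with earlier results of these data known. Named genes were the 6 members, each listed noncanonical gene with at least 10 summed counts, the genes just above and below a member by mean CPM, and the 3 most abundant other short-intron genes. For the nearest genes in level only those of Mir484 and Mir320 are printed. Mir344 and the tissue markers lie outside this rule. Alternatives were 3 other scalings, either-strand counts, other count minimums, other limits on the distance to the intron ends and leaving out each library.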

Additional observations from a re-analysis of the deposited data

How the results depend on the processing

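The 6 genes together held 2627 CPM. The sum was 6163 CPM of the total without the 10 most abundant genes, which shrinks the denominator, 2578 CPM with reads of either strand and 826 CPM without Mir484, an alternative chosen after seeing the data. With 1 library left out it ranged from 2611 to 2643 CPM. All 6 genes were detected with either library left out, and 5 had at least 100 counts in both. The 236 calls over all genes ranged from 177 to 245 under the other scalings and filters. With the filter at 1 summed count, 24 short-intron genes passed in place of 12. Mir702 turned from 0.08 to -0.21 with TMM, -0.15 with DESeq2's size factors and -0.13 with the total without the 10 most abundant genes, and passed the test in none of these. Mir877 passed under the same 3 scalings, and Mir320 lost its call with TMM only (log2 ratio 0.08). No paired analysis was possible because the series holds a single group. Depth limits Mir1224, whose 20 and 34 counts leave a counting SD of 0.41 on the log2 scale.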
